A study of Mus musculus with 6 samples.

Results

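The genes described here encode 9 small proteins that cells use to sense calcium or to read sugars: the S100 proteins S100a4, S100a6, S100a10, S100a11 and S100a13, and the galectins Lgals1, Lgals3, Lgals8 and Lgals9. They were chosen by name from the 34745 genes of the deposited tables, with earlier results of these data known. All 9 had a row in each of the 6 libraries. The libraries are RNA-seq of CD8+ effector T cells (Teff), 3 from WT (C57BL/6J) mice and 3 from Scd-1-/- (B6.129-Scd1tm1Ntam/J) mice, males of 6 to 8 weeks of age. Splenic CD8+ T cells of both genotypes were isolated with magnetic beads and received anti-CD3 (5 µg/mL), anti-CD28 (0.5 µg/mL) and IL-2 (100 U/mL) during the first 3 days, then IL-2 alone for 3 more, with harvest on day 6. Scd1 encodes stearoyl-CoA desaturase, the enzyme that makes monounsaturated fatty acids, and the knockout was not restricted to T cells, so the mice lacked it in all tissues before the cells were taken. The question of the comparison was how the loss of Scd1 alters gene expression in Teff.

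S100 proteins are small calcium-binding proteins of the EF-hand type. Most form dimers that, on binding calcium, attach to target proteins such as annexins, the cytoskeletal motor myosin and the scaffold protein encoded by Ahnak. Galectins are lectins that bind galactose-containing sugars on glycoproteins. They are made in the cytosol, leave the cell by a route outside the classical secretory pathway, and form lattices with branched glycans on the cell surface, while sialic acid at the end of a glycan can block them. In T cells, several genes of both families are low in naive cells and high in effector and memory cells.

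Each library held 14034479 to 15866216 counts, so that a count of 0 allowed up to 3 counts, or 0.189 to 0.214 CPM (a gene's count scaled to a fixed library total), with counting error alone covered. Scd1 itself had 3074 to 4272 counts in WT and 20 to 36 counts in Scd-1-/- libraries. Replicate 1 of each genotype stood apart from replicates 2 and 3: the chi-square of its counts against them was 54.5 to 65.9 per degree of freedom, against 15.5 (WT) and 12.8 (Scd-1-/-) between replicates 2 and 3. The results of the 9 genes are therefore given with and without it. The 6 listed CD8 T cell markers were present throughout, with a summed FPKM (a count per transcript length and library size) of 1890 to 2380 in WT and 1840 to 2110 in Scd-1-/- Teff, mostly from the CD3 chains and Trac. Cd8a was lower in every Scd-1-/- library (FPKM 27.9 to 36.6) than in any WT library (43.2 to 47.6), with a log2 difference of -0.46 (adjusted p = 0.297, and 0.0166 with replicates 2 and 3 alone), and Cd8b1 differed by -0.30 (adjusted p = 0.647, and 0.0382). The labels do not say whether the 3 libraries of a genotype came from separate mice or cultures, so the p-values measure the spread between these libraries, which may be technical.

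The 5 S100 genes lie on chromosome 3, in the S100 gene cluster and close to it. On GRCm38, S100a13 spans 90514435 to 90524581, S100a4 90603771 to 90606045 and S100a6 90612882 to 90624181. S100a11 (93520488 to 93526287) and S100a10 (93555080 to 93564643) lie side by side farther along, and all 5 are on the plus strand. The galectin genes are scattered, with Lgals1 on chromosome 15 (78926725 to 78930465, plus strand), Lgals3 on chromosome 14 (47367751 to 47386160, plus strand), Lgals8 on chromosome 13 (12439415 to 12464944, minus strand) and Lgals9 on chromosome 11 (78962974 to 78984946, minus strand). RefSeq promoter sequence (GRCm38.p6) was held for 7 of the 9 genes, not for S100a10 and Lgals1. The stretches just before the RefSeq start, with exon bases left out, are shown for the 3 genes with the largest fold changes and for S100a11, the one whose stretch held AP-1 letters. Capitals mark matches to any of 4 motifs, searched on both strands. The RefSeq start of Lgals3 lies inside the GENCODE span given above, so that its stretch does too, and the same holds for Lgals8, whose sequence is not shown.
S100a4 (chr3:90603520-90603769, plus strand): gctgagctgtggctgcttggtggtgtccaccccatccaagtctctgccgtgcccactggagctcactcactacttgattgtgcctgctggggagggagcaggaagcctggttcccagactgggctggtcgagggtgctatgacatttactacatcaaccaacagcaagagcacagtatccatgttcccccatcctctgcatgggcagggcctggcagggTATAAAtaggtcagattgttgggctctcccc
S100a6 (chr3:90612644-90612881, plus strand): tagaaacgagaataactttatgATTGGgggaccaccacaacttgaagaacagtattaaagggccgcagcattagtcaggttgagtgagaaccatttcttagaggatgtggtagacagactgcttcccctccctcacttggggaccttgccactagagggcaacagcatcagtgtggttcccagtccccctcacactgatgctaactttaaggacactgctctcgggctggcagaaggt
S100a11 (chr3:93520246-93520487, plus strand): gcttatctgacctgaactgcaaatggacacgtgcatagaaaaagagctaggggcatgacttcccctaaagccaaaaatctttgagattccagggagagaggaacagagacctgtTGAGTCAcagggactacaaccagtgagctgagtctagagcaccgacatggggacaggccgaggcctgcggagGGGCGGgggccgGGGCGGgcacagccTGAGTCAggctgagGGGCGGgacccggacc
Lgals3 (chr14:47373610-47373812, plus strand): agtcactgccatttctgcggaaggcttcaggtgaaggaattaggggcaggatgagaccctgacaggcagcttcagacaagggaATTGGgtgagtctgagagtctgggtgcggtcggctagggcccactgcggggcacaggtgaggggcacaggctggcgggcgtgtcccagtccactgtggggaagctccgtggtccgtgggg

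The 4 motifs were the TATA box (TATAAA), the AP-1 site (TGANTCA), the GC box (GGGCGG) and the CCAAT box (CCAAT), and no matches overlapped in the stretches shown. Of the 7 promoters, over the full 250 bases before the start, 1 held a TATA box (S100a4), 1 held AP-1 letters (S100a11, with 2 matches), 2 held a GC box (S100a11 with 3 matches and Lgals3 with 1) and 3 held a CCAAT box (S100a6, Lgals3 and Lgals8). Of 32851 promoters of the same length, 12.4% held the TATA letters, 6.75% the AP-1 letters, 32.7% the GC box and 33.8% the CCAAT box. No single motif was thus shared by all 3 genes with the largest fold changes. These are matches of letters, and no binding was measured.

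Levels of the 9 genes were compared per length, as CPM per kilobase of the longest annotated transcript, without TMM scaling (the trimmed-mean library scaling used in the tests). Lgals1 was the highest, at 3004 ± 460 (WT) and 4178 ± 309 (Scd-1-/-; SD, n = 3), and on CPM alone it ranked 25 among all genes. S100a10 came next, at 1698 ± 396 and 2465 ± 319. In WT Teff, S100a6 (452 ± 265), S100a11 (350 ± 84.0), S100a4 (342 ± 291), Lgals3 (208 ± 120) and S100a13 (162 ± 26.6) followed, and each of the first 4 overlapped the next in its range of libraries.

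**Figure D1:**
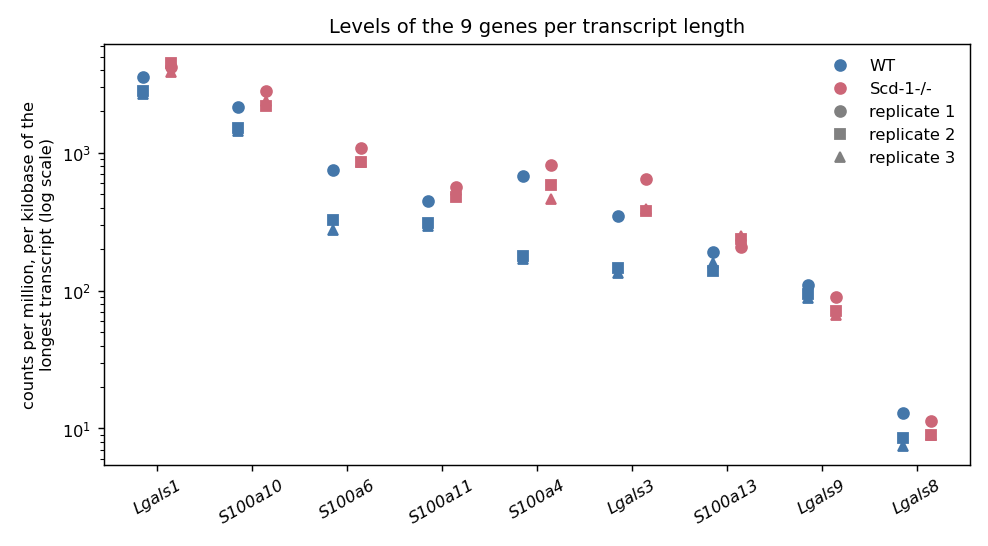
CPM per kilobase of the longest transcript (log axis) of the 9 genes in each WT and Scd-1-/- library, ordered by the WT mean; marker shapes give the replicate number. Lgals1 and S100a10 lie above the other 7 genes in both genotypes, and the WT values of S100a4, S100a6 and Lgals3 are split between replicate 1 and the other two.

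Lgals9 (97.3 ± 11.2) and Lgals8 (9.66 ± 2.95) closed the order in WT Teff. In Scd-1-/- Teff, S100a6 (936 ± 133) was again in the third place, here without overlap with the next gene. S100a4 (620 ± 181) and S100a11 (526 ± 44.3) had changed places, with ranges that overlapped in both genotypes. S100a11 and Lgals3 (475 ± 153) overlapped there too, while S100a13 (232 ± 22.7), Lgals9 (76.2 ± 12.6) and Lgals8 (9.81 ± 1.37) followed, each apart from its neighbours. Together the 9 genes took 0.630%, 0.425% and 0.404% of the counts of WT replicates 1, 2 and 3, and 0.807%, 0.714% and 0.677% of those of Scd-1-/- replicates 1, 2 and 3. All 3 Scd-1-/- shares thus lay above all 3 WT shares.

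S100a4 (ENSMUSG00000001020), whose product binds non-muscle myosin and is linked to cell motility, had a TMM-scaled CPM of 346, 88.6 and 83.4 in WT replicates 1, 2 and 3 and of 416, 292 and 235 in Scd-1-/- replicates 1, 2 and 3. WT replicate 1 was 4.02 times the mean of the other 2 WT libraries and lay above Scd-1-/- replicates 2 and 3, so the groups overlapped. By edgeR's quasi-likelihood test, Scd-1-/- over WT gave a log2 fold change of 0.86 (standard error, SE, 0.55; adjusted p = 0.662, Benjamini-Hochberg over 9627 tested genes), with a 95% interval of -0.41 to 2.13. With the replicate number as a block, since same-numbered libraries deviated together, it was 1.16 (adjusted p = 0.0453). The thresholds of the study, an absolute log2 value of 1 or more together with a p under 0.001 (read here as unadjusted), were not passed in either fit. Both thresholds were passed with the block when all 17192 genes with a count were tested (1.15, adjusted p = 0.0152), a setting chosen after seeing the data, and also with replicates 2 and 3 alone (1.62, adjusted p = 0.000157) and without WT replicate 1 (1.87, adjusted p = 0.0270). Over the 15 alternatives the log2 fold change ran from 0.53 to 1.87 and the adjusted p from 0.000157 to 0.997. Of the 50-base stretches of S100a4 transcripts, 47.4% also occur in the read-through gene Gm42674. That gene had 0 to 5 counts per library, against 1211 to 6333 for S100a4, so few reads were assigned to it. How reads that match both were counted is not given.

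S100a6 (ENSMUSG00000001025), which encodes calcyclin, had a CPM of 607, 255 and 211 in WT replicates 1, 2 and 3. In Scd-1-/- replicates 1, 2 and 3 it was 872, 684 and 683. No Scd-1-/- library overlapped a WT library, although WT replicate 1 lay closer to the Scd-1-/- libraries than to the other WT libraries. Its log2 fold change of 1.06 (SE 0.38, adjusted p = 0.396) did not pass the thresholds. With the replicate block it was 1.22 and passed them (edgeR, adjusted p = 0.0216), as it did with replicates 2 and 3 alone (1.55, adjusted p = 0.000106) and without WT replicate 1 (1.68, adjusted p = 0.0132). Its adjusted p ran from 0.000106 to 0.950 over the alternatives.

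**Figure D2:**
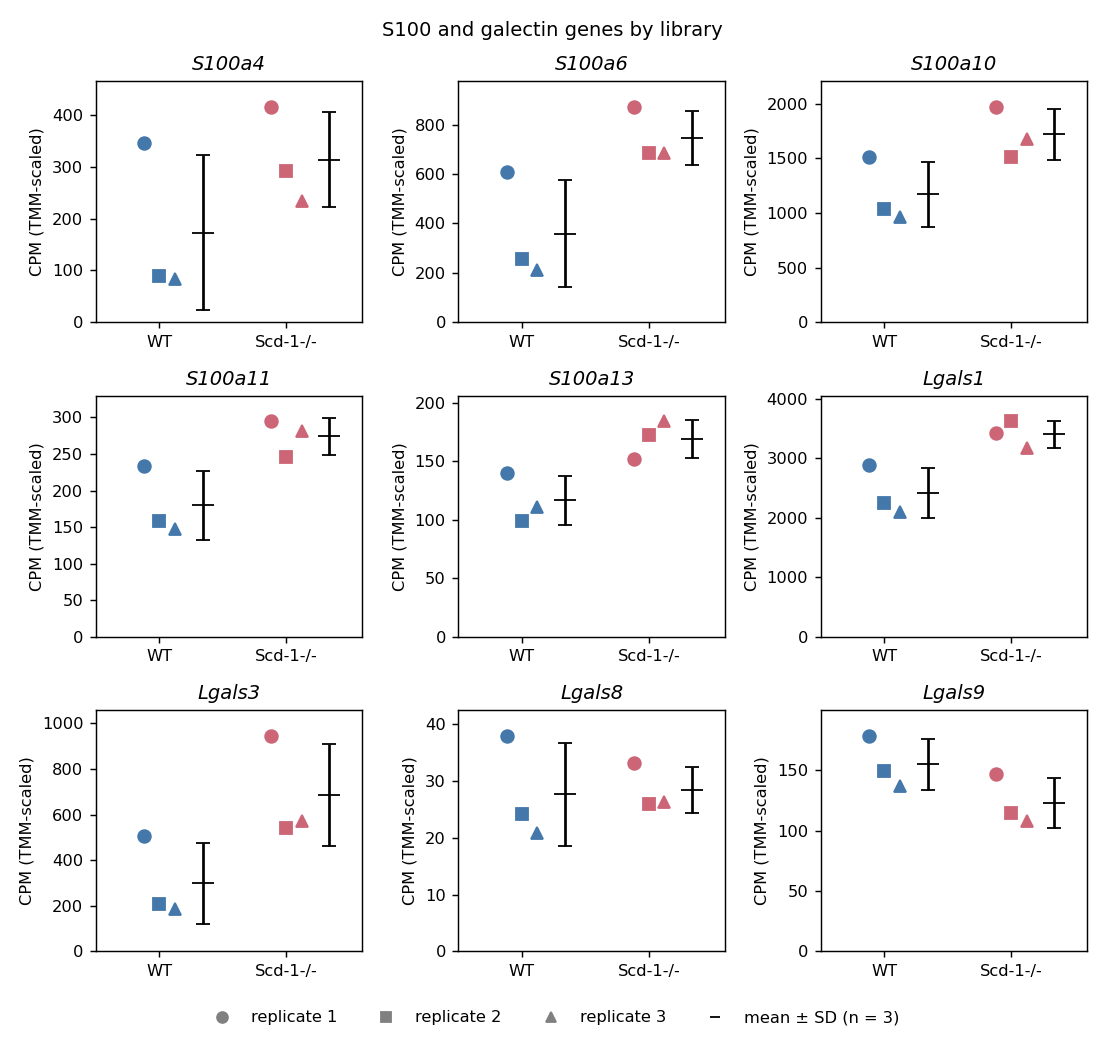
TMM-scaled CPM (linear axes from 0) of the 9 genes in the 3 WT (blue) and 3 Scd-1-/- (red) libraries, with marker shapes for the replicate number and black bars for the mean ± SD (n = 3). The groups do not overlap for S100a6, S100a10, S100a11, S100a13, Lgals1 and Lgals3, and WT replicate 1 is the highest WT library in every panel.

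S100a10 (ENSMUSG00000041959) encodes the partner of annexin A2, with which it forms a complex at the plasma membrane, and it no longer needs calcium to bind. Its CPM was 1511, 1035 and 961 in WT replicates 1, 2 and 3 and 1972, 1513 and 1677 in Scd-1-/- replicates 1, 2 and 3. The lowest Scd-1-/- library was only just above the highest WT library. On the log2 scale the difference was 0.56 (SE 0.20, adjusted p = 0.395), or 0.58 with the replicate block (adjusted p = 0.0331), a size under the threshold in either fit. Its adjusted p over the alternatives ran from 0.00538 to 0.950.

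S100a11 (ENSMUSG00000027907), whose product binds annexin A1, had a CPM of 234, 158 and 148 in WT replicates 1, 2 and 3 and of 295, 246 and 282 in Scd-1-/- replicates 1, 2 and 3. Again the groups did not overlap, with Scd-1-/- replicate 2 close above WT replicate 1. This amounted to 0.61 on the log2 scale (SE 0.19, adjusted p = 0.352), and to 0.63 with the replicate block (adjusted p = 0.0343, with a range of 0.00283 to 0.919 over the alternatives). Of its 50-base stretches, 41.1% also occur in processed pseudogenes, which were not analysed here.

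S100a13 (ENSMUSG00000042312) encodes a protein that takes part in the non-classical release of fibroblast growth factor 1 and interleukin 1 alpha. Its CPM was 140, 99.0 and 111 in WT replicates 1, 2 and 3 and 152, 172 and 184 in Scd-1-/- replicates 1, 2 and 3. The groups did not overlap, and here replicate 1 was the lowest of the Scd-1-/- libraries. A log2 fold change of 0.54 (SE 0.16, adjusted p = 0.311) resulted, and of 0.55 with the replicate block (adjusted p = 0.0751). It reached an adjusted p under 0.05 with replicates 2 and 3 alone (0.76, adjusted p = 0.00362), and in no other of the 15 alternatives.

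Lgals1 (ENSMUSG00000068220) encodes the dimeric galectin that is known for inducing death and dampening of activated T cells. Its CPM was 2894, 2246 and 2103 in WT replicates 1, 2 and 3, and 3427, 3618 and 3165 in Scd-1-/- replicates 1, 2 and 3. All 3 Scd-1-/- libraries lay above all 3 WT libraries. The difference was 0.50 on the log2 scale (SE 0.15, adjusted p = 0.291), and 0.51 with the replicate block (adjusted p = 0.0573, with a range of 0.0100 to 0.878 over the alternatives). Its 95% interval without the block, 0.15 to 0.84, left out both 0 and the 1 of the threshold.

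Lgals3 (ENSMUSG00000050335) encodes the chimeric galectin with a single sugar-binding domain and a long tail through which it oligomerises, and which is known to restrain the T cell receptor at the cell surface. Its CPM was 504, 207 and 186 in WT replicates 1, 2 and 3, and 945, 542 and 573 in Scd-1-/- replicates 1, 2 and 3. Replicate 1 was the highest library of each genotype, and the groups did not overlap. At 1.20 (SE 0.41, adjusted p = 0.378), its log2 fold change was the largest of the 9 genes, and it did not pass the thresholds. With the replicate block it was 1.31, with an interval of 0.98 to 1.63, and it passed them (edgeR, adjusted p = 0.00502). The same held with replicates 2 and 3 alone (1.51, adjusted p = 7.25e-05) and without WT replicate 1 (1.81, adjusted p = 0.0314), and the adjusted p of the alternatives ran up to 0.935.

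Lgals8 and Lgals9 encode the galectins with a tandem repeat, in which a pair of different sugar-binding domains is joined by a linker. Lgals8 (ENSMUSG00000057554), whose product marks damaged endosomes for autophagy, had a CPM of 37.9, 24.2 and 20.8 in WT and 33.1, 25.9 and 26.2 in Scd-1-/- replicates 1, 2 and 3. The groups overlapped fully. On the log2 scale it differed by 0.04 (SE 0.25, adjusted p = 0.976), with an interval of -0.54 to 0.62, and its sign turned without Scd-1-/- replicate 1 and without either of WT replicates 2 and 3. The gene overlaps the exons of Heatr1, on the opposite strand, by 155 bases, and the sources differ on whether the library kept strand.

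Lgals9 (ENSMUSG00000001123), whose product binds the inhibitory receptor encoded by Havcr2, was the only one of the 9 genes with a negative log2 fold change. Its CPM was 178, 150 and 137 in WT and 147, 115 and 108 in Scd-1-/- replicates 1, 2 and 3. Scd-1-/- replicate 1 lay above WT replicate 3, so the groups overlapped, yet within each replicate number the Scd-1-/- library was the lower one. Its log2 value of -0.33 (SE 0.17, adjusted p = 0.567) came with an interval of -0.73 to 0.06. With the replicate block it was -0.34 (adjusted p = 0.0881), with an interval of -0.56 to -0.12, and across all alternatives it stayed negative, between -0.48 and -0.22, without reaching an adjusted p under 0.05.

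Without the replicate block, 0 of the 9 genes passed the thresholds of the study, against 0.738% of all 9627 tested genes, and 0 had an adjusted p under 0.05, against 0.114%. DESeq2 and limma also called 0 by either rule. The paper lists Lgals3 among the genes higher in Scd-1-/- Teff. It names edgeR but not the form of the test, so its calls can differ from those given here. At an unadjusted p under 0.05 stood 6 of the 9, all higher in Scd-1-/- Teff, with edgeR, DESeq2 and limma alike, where edgeR had 5.42% of all tested genes higher at that level. Their median log2 fold change was 0.56, against -0.00051 over all tested genes. The groups did not overlap, with Scd-1-/- higher, for 6 of the 9 genes, against 8.40% of all tested genes. Because the 9 were chosen with earlier results of these data known, such shares describe them and do not test them as a group. With replicates 2 and 3 alone, the groups did not overlap, in one direction or the other, for 9 of the 9 genes and for 59.8% of all tested genes. In this bulk RNA, more cells with these transcripts and more transcript per cell cannot be told apart.

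**Figure D3:**
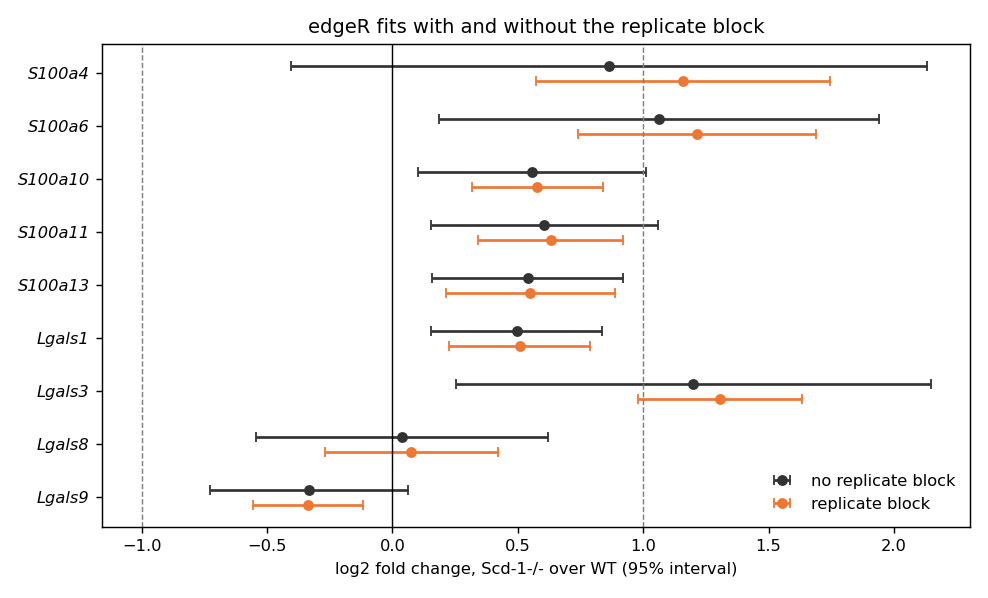
Log2 fold change (Scd-1-/- over WT) of the 9 genes with its 95% interval, from edgeR fits without (black) and with (orange) the replicate number as a block; dashed lines mark the fold threshold of the study. With the block the intervals are shorter, S100a4 moves from 0.86 to 1.16, and of these 2 fits S100a6 and Lgals3 pass the thresholds in the one with it.

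With the replicate block, 2 of the 9 genes (S100a6 and Lgals3) passed the thresholds, against 1.91% of all tested genes, or 1.19% with Scd-1-/- higher. At an adjusted p under 0.05 stood 5 genes (S100a4, S100a6, S100a10, S100a11 and Lgals3), all higher in Scd-1-/- Teff, against 2.64% of all tested genes in that direction. When the block was fitted to all 17192 genes with a count, with no FPKM minimum, S100a4 passed as well, so that 3 of the 9 did, against 0.960% of all genes with Scd-1-/- higher. At an adjusted p under 0.05 there stood 6, the 5 above and Lgals1 (adjusted p = 0.0236), against 2.24% of all genes in that direction. With replicates 2 and 3 alone, 3 genes (S100a4, S100a6 and Lgals3) passed the thresholds, against 2.25% of all genes with Scd-1-/- higher, and 7 had an adjusted p under 0.05, against 6.53%. In that fit the log2 fold change was 0.68 for S100a10, 0.79 for S100a11, 0.64 for Lgals1, 0.21 for Lgals8 and -0.37 for Lgals9. Without WT replicate 1, the same 3 passed, against 1.07% with Scd-1-/- higher, and 4 (these and S100a11) had an adjusted p under 0.05, against 0.976%. Leaving out any other single library left 0 of the 9 past the thresholds.

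The 7 genes other than Lgals8 and Lgals9 were higher in the Scd-1-/- library within all 3 replicate numbers, as were 22.1% of all tested genes, and Lgals9 was lower within all 3, as were 22.9%. In replicate 1, the ratio of Scd-1-/- to WT CPM was 1.20 for S100a4, 1.44 for S100a6 and 1.88 for Lgals3. In replicate 2 it was 3.29, 2.69 and 2.62, and in replicate 3 it was 2.82, 3.23 and 3.08, in the same order. For each of the 7 genes, replicate 1 had the smallest of the 3 ratios, which was so for 60.2% of the 2125 tested genes that were higher in all 3 numbers. Replicate 1 was the highest library in both genotypes for 7 of the 9 genes, the exceptions being S100a13 and Lgals1, against 30.2% of all tested genes.

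**Figure D4:**
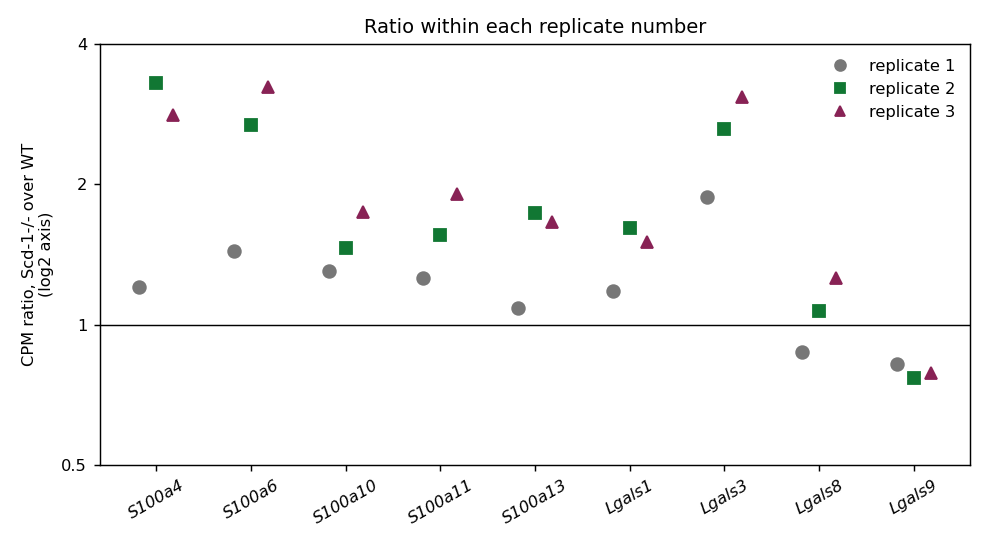
Ratio of TMM-scaled CPM, Scd-1-/- over WT, within each replicate number (log2 axis) for the 9 genes, with the line at 1 for equal levels. Replicate 1 (grey circles) gives the smallest ratio for the 7 genes that are above the line in all 3 numbers, and Lgals9 is below the line in all 3.

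Markers of other cells were read beside these differences. Of the 7 neutrophil markers, S100a9, Camp, Retnlg and Mmp8 were at 0 in all libraries, S100a8 had at most 2 counts, and the summed FPKM was 0.157 to 0.368 in WT and at most 0.558 in Scd-1-/- Teff. Of the 9 markers of monocytes and macrophages, which carry much Lgals3 and S100 transcript, Adgre1 and Fcgr1 were at 0 and Lyz2 had at most 2 counts. Their summed FPKM was 8.16 to 17.4 in WT and 10.2 to 29.0 in Scd-1-/- Teff, mostly from Cd68, while Cd14 had 4 to 11 and 28 to 42 counts. Cd68 was highest in replicate 1 of both genotypes, with groups that overlapped (log2 fold change 0.48, adjusted p = 0.833, and 0.218 with the replicate block). In the fit to all genes with a count, Cd14 passed the thresholds (log2 fold change 2.41, adjusted p = 0.0956, and 0.0287 with the replicate block). Itgam had 16, 0 and 5 counts in WT and 83, 13 and 16 in Scd-1-/- replicates 1, 2 and 3, with groups that overlapped (2.35, adjusted p = 0.524, and 0.0464 with the block), and it did not pass them. Mpeg1, near the limit of detection, lay the other way, with 4, 2 and 3 counts in WT and 0, 0 and 1 in Scd-1-/- replicates 1, 2 and 3. Of the 6 dendritic cell markers, Xcr1, Siglech and Clec9a were at 0, and the summed FPKM was 0.544 to 2.75 in WT and 1.96 to 8.30 in Scd-1-/- Teff, mostly from Itgax.

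Itgax had 219, 39 and 49 counts in WT and 678, 186 and 157 counts in Scd-1-/- replicates 1, 2 and 3. It was highest in replicate 1 of both genotypes, as were S100a4, S100a6, Lgals3 and 30.2% of all tested genes. Its log2 difference was 1.69 (adjusted p = 0.529). With the replicate block it rose past the thresholds (1.78, adjusted p = 0.00591), as did S100a6, Lgals3 and 1.19% of all tested genes. On the same list, Zbtb46 had 5, 3 and 11 counts in WT and 15, 10 and 8 in Scd-1-/- replicates 1, 2 and 3, with groups that overlapped. Flt3 had at most 5 counts. The 4 NK cell markers had a summed FPKM of 0.501 to 1.16 in WT and 1.82 to 9.39 in Scd-1-/- Teff, nearly all from Klrb1c, while Ncr1, Klra4 and Klra8 had at most 5 counts. Klrb1c did not overlap between the groups (3.09 on the log2 scale, adjusted p = 0.121) and passed the thresholds with the block (2.88, adjusted p = 0.00591). Trdc, the constant segment of the delta chain and 1 of 2 listed gamma delta T cell markers with a row, ranged over an FPKM of 1.33 to 2.61 (WT) and 7.83 to 17.1 (Scd-1-/-) and passed the thresholds without the block (2.86, adjusted p = 0.0629) and with it (2.85, adjusted p = 0.00985). The summed FPKM of the 5 B cell markers was 9.41 to 10.7 in WT and 3.13 to 7.99 in Scd-1-/- Teff, from Cd79b, with Ms4a1 and Pax5 at 0. Cd79b was lower in every Scd-1-/- library than in any WT library (-1.02 on the log2 scale, adjusted p = 0.387, and 0.0434 with the block), and it passed the thresholds with replicates 2 and 3 alone (-1.49, adjusted p = 0.00155), as did Itgax, Klrb1c and Trdc. That of the 4 CD4 T cell markers was 6.15 to 12.2 and 8.01 to 11.2, nearly all from Zbtb7b. Cd4 itself had 8, 24 and 12 counts in WT and 5, 2 and 1 in Scd-1-/- replicates 1, 2 and 3, without overlap (-2.49 on the log2 scale, adjusted p = 0.344, and 0.193 with the block). The summed FPKM of the markers of erythroid cells, of platelets and of stromal cells stayed under 1 in every library. The part of the markers that differed in the results of the S100 and galectin genes was not tested.

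Of the other S100 genes, 12 had a row (S100a2 was added after its row was seen) and only S100a1 and S100a5 passed the FPKM minimum of 1. S100a1, whose start lies head to head with that of S100a13, had 503, 459 and 543 counts in WT and 655, 674 and 736 counts in Scd-1-/- replicates 1, 2 and 3. Its groups did not overlap, with a log2 difference of 0.41 (SE 0.15, adjusted p = 0.395), a size close to that of S100a13. S100a5, between S100a4 and S100a6 on the chromosome, averaged an FPKM of 2.66 ± 0.46 (WT) and 2.46 ± 0.66 (Scd-1-/-) (SD, n = 3), and its log2 fold change was -0.08 (adjusted p = 0.965). S100a3 had 25 to 47 counts per library, S100a14 and S100z at most 4, S100a2 and S100a8 at most 2, and S100a7a, S100a9, S100a16, S100b and S100g were at 0.

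Among the other galectin genes, 5 of the 6 listed had a row. Lgalsl, which encodes a galectin-like protein, averaged an FPKM of 2.29 ± 0.08 (WT) and 2.95 ± 0.35 (Scd-1-/-) (SD, n = 3), with groups that did not overlap and a log2 difference of 0.38 (SE 0.19, adjusted p = 0.562). Lgals4 had 27 to 51 counts per library and Lgals7 2 to 16, both with overlapping groups. Lgals2 had at most 1 count and Lgals12 was at 0. Expression of the galectin family was thus held by the 4 genes described above and, at a low level, by Lgalsl and Lgals4.

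Partners of both families were read from 5 lists, in which 65 of 70 genes were tested. The lists, too, were chosen with earlier results known, and the paper already names Anxa1 and Havcr2 as higher in Scd-1-/- Teff. Of 9 tested partners and receptors of S100 proteins, 1 rose past the thresholds and none fell, where 0.499% of all tested genes rose past them. It was Anxa1, the partner of S100a11, with 725, 369 and 449 counts in WT and 1669, 2204 and 2829 counts in Scd-1-/- replicates 1, 2 and 3 (log2 fold change 2.08, adjusted p = 0.0629 and 0.00912 with the replicate block, edgeR). Anxa2, the partner of S100a10, averaged an FPKM of 455 ± 144 (WT) and 513 ± 116 (Scd-1-/-) (SD, n = 3), with a log2 fold change of 0.19 (interval -0.41 to 0.79, adjusted p = 0.880). The log2 fold change was 0.48 for Ahnak (adjusted p = 0.633; with replicates 2 and 3 alone, 0.69 and 0.0128), -0.06 for Myh9, the myosin that S100a4 binds (adjusted p = 0.931), and 0.56 for Cacybp, the partner of S100a6 (adjusted p = 0.736). Of the receptors that sense extracellular S100 proteins, Ager averaged an FPKM of 0.14 (WT) and 0.10 (Scd-1-/-), and Tlr4 0.05 and 0.09. With replicates 2 and 3 alone, Anxa1 and Ahnak were the 2 of 9 with an adjusted p under 0.05, both higher, against 6.53% of all tested genes in that direction.

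Of 17 glycoproteins known to bind galectins, 2 rose past the thresholds, against the same 0.499% of all tested genes. Pdcd1, the inhibitory receptor PD-1, averaged an FPKM of 33.3 (WT) and 130 (Scd-1-/-) (log2 fold change 1.99, adjusted p = 0.0259), and Havcr2, the inhibitory receptor Tim-3, had 2.84 and 12.7 (log2 fold change 2.18, adjusted p = 0.0816, and 0.00673 with the replicate block). The median of the list was 0.056. The log2 fold change was -0.00013 for Spn (CD43), 0.00098 for Cd44 and 0.06 for Cd2. It was 0.28 for Ptprc (CD45, adjusted p = 0.853) and -0.48 for Lgals3bp, which encodes a secreted galectin-binding protein (adjusted p = 0.528; with replicates 2 and 3 alone, -0.69 and 0.0122). Lag3, an inhibitory receptor, averaged an FPKM of 151 (WT) and 111 (Scd-1-/-), with a log2 value of -0.42 (adjusted p = 0.738) and of -0.71 with replicates 2 and 3 alone (adjusted p = 0.00237). For Bsg (CD147) these were -0.22 (adjusted p = 0.770) and -0.44 (adjusted p = 0.0420). Tnfrsf4 was lower in all Scd-1-/- libraries than in any WT library (log2 fold change -0.87, adjusted p = 0.278), and it passed the thresholds with replicates 2 and 3 alone. At an adjusted p under 0.05 in that fit stood 4 of the 17 glycoproteins higher and 4 lower in Scd-1-/- Teff, against 6.53% and 6.07% of all tested genes. The 4 higher were Pdcd1, Havcr2, Tfrc (0.62, adjusted p = 0.02465) and Lamp2 (0.62, adjusted p = 0.02965).

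Of 15 tested enzymes that build or cap the glycans galectins bind, 1 rose past the thresholds, again against 0.499% of all tested genes. St3gal6, which adds sialic acid to galactose, averaged an FPKM of 2.19 (WT) and 4.95 (Scd-1-/-) (log2 fold change 1.20, adjusted p = 0.0837, and 0.00912 with the replicate block). St6gal1, whose sialic acid on N-glycans is known to block binding of some galectins, averaged an FPKM of 4.95 (WT) and 1.07 (Scd-1-/-), with no overlap (log2 fold change -2.19, adjusted p = 0.121). It fell past the thresholds with the replicate block (-2.26, adjusted p = 0.0144). C1galt1, which makes the core of O-glycans, had a log2 fold change of 0.63 with an adjusted p of 0.0477 with the replicate block (0.316 without it). The branching enzyme of O-glycans, Gcnt1, lay under the FPKM minimum and was read from the fit to all 17192 genes with a count. Its log2 fold change there was 1.51 (adjusted p = 0.278), and 1.70 past the thresholds with the replicate block (adjusted p = 0.0120).

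Of the branching enzymes of N-glycans, Mgat5 differed by 0.20 on the log2 scale (adjusted p = 0.929), Mgat2 by 0.36 (0.648) and Mgat1 by 0.04 (0.973), and none passed the thresholds. With replicates 2 and 3 alone, Mgat2 had 0.49 with an adjusted p of 0.0436. Of the 15 enzymes, 3 were higher and 2 lower at an adjusted p under 0.05 in that fit, against 6.53% and 6.07% of all tested genes. The 2 lower were St6gal1 and St3gal1 (-0.49, adjusted p = 0.0287). B4galt1, which adds galactose, had 0.04 (adjusted p = 0.974). Of 7 genes that act where galectins find damaged endosomes, none passed the thresholds with edgeR, DESeq2 or limma, and 3 had an unadjusted p under 0.05 with edgeR and with DESeq2 and 2 with limma. Of all tested genes, 10.1% (edgeR), 11.1% (DESeq2) and 10.4% (limma) stood at that level. Sqstm1 and Tax1bp1, which encode autophagy receptors, had log2 fold changes of 0.60 and 0.57, with adjusted p of 0.258 and 0.291, and of 0.0208 and 0.0239 with the replicate block. They were also the 2 of 7 with an adjusted p under 0.05 with replicates 2 and 3 alone, both higher, against 6.53% of all tested genes in that direction.

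**Figure D5:**
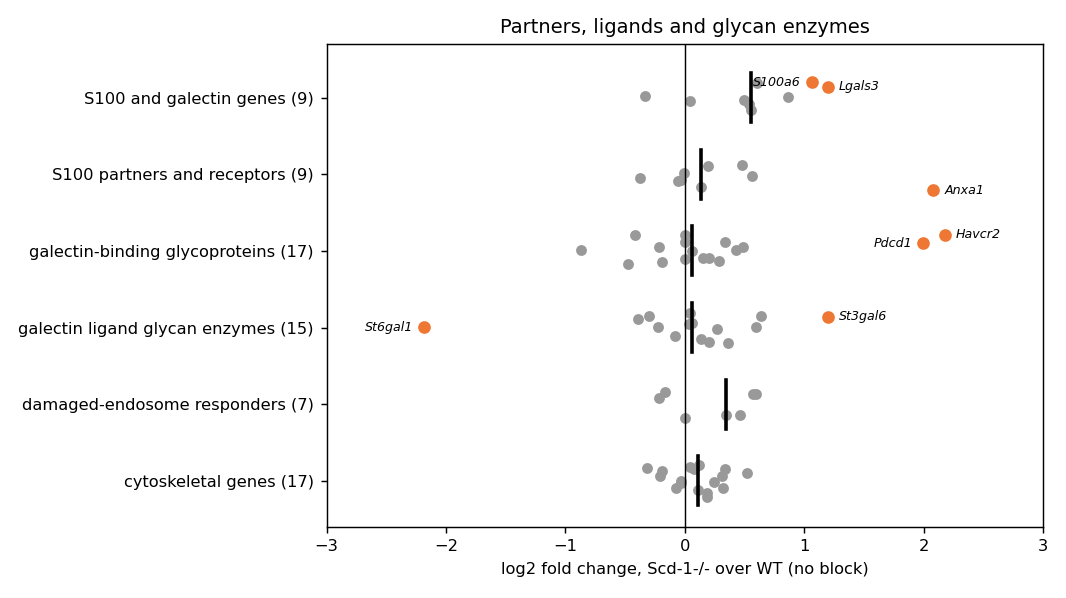
Log2 fold change (Scd-1-/- over WT, fit without the block) of each tested gene of the S100 and galectin group and of 5 lists of their partners, with the number of genes tested in brackets and black bars at the medians. Named orange points pass the thresholds with the replicate block; the median of the S100 and galectin genes is 0.56, and those of the lists lie between 0.056 and 0.34.

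None of 17 cytoskeletal genes passed the thresholds with edgeR, DESeq2 or limma, and 2 of them had an unadjusted p under 0.05 with each tool. That was 11.8% of the list, against 10.1% (edgeR), 11.1% (DESeq2) and 10.4% (limma) of all tested genes. Tmsb4x, which encodes an actin-binding peptide, averaged an FPKM of 1622 (WT) and 2294 (Scd-1-/-) (log2 fold change 0.52, adjusted p = 0.440), whereas Cfl1 (0.11) and Tmsb10 (0.07) lay near 0 and Actb at -0.21. Vim, the intermediate filament vimentin, had 0.34 (adjusted p = 0.688). With replicates 2 and 3 alone, 3 of the 17 were higher at an adjusted p under 0.05, against 6.53% of all tested genes in that direction. They were Tmsb4x (0.77, adjusted p = 0.0252), Vim (0.45, adjusted p = 0.0288) and Emp3, which encodes a membrane protein (0.41, adjusted p = 0.0452).

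Of 34 genes of other families within 100 kb of the S100 and galectin genes (neighbours from the same families, such as S100a1, were left out), 16 were tested, with a median log2 fold change of 0.042. None passed the thresholds, and 0 had an unadjusted p under 0.05 with edgeR, 0 with limma and 1 with DESeq2, against the shares of all genes given above. Ksr1, next to Lgals9, was lower with an adjusted p of 0.0490 with the replicate block (-0.69) and of 0.00961 with replicates 2 and 3 alone (-0.88), without passing the thresholds. Over the 6 libraries, the log2 CPM of the 7 genes that were higher in all replicate numbers correlated with each other at a Pearson r of 0.783 to 0.995 (21 pairs, median 0.934), in points that share their libraries and depth. These 7 were picked for a shared direction over the same libraries, and the 15 pairs with Lgals8 or Lgals9 ran from -0.565 to 0.827. The tested genes whose pattern was most like that of S100a4 were Dstn, Cdh1 and Chst12 (r = 0.993 for each, over 6 libraries). Those most like Lgals3 were Gm16536, Sult2b1 and Oit3 (r = 0.996 for each), with a mean FPKM of 1.83, 3.49 and 4.49. Genes of both sets were picked for the highest r among the tested genes, so these values are no test of a link.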

How the data were processed

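RNA-seq was analysed in 3 WT and 3 Scd-1-/- Teff libraries, grouped by the sample labels. The authors mapped reads with HISAT2 and counted them with StringTie 1.3.0 on GRCm38 (submitters' processing notes), and deposited per gene a raw count and an FPKM. The deposited FPKM holds no TMM factor: count over FPKM followed the library totals to within 1.06e-05. Its gene lengths exceed the exon union for 77.0% of genes with several transcripts, so genes were compared by CPM per kilobase of the longest transcript. The study's methods name a stranded total RNA kit and the labels a poly(A) protocol, so strand handling is uncertain. How reads matching several genes were counted is not given in the sources used here.

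Counts were tested with edgeR 4.0.16 (quasi-likelihood test, TMM, Benjamini-Hochberg adjustment) in 9627 genes (mean FPKM over the libraries of 1 or more), with DESeq2 1.42.0 and limma 3.58.1 on log2(FPKM + 1) and log2(FPKM + 0.1) as alternatives. The standard error is the log2 fold change over the square root of F. The script was tested on simulated data. An exact permutation test of 3 against 3 cannot go below 0.1. Same-numbered libraries deviated together over 9627 genes (r = 0.630, 0.334 and 0.507), which is how the pairing was set. Differently numbered libraries also did: WT replicate 3 with Scd-1-/- replicate 2 (r = 0.443) and WT replicate 2 with Scd-1-/- replicate 3 (0.194), so numbers 2 and 3 are not told apart by it. The labels do not say what the number stands for. Positions are from GENCODE M21, in which 98.8% of the identifiers matched. Named genes are the 9 genes, their other family members, genes of the lists that passed a threshold or were abundant, Scd1, and the 3 genes most correlated with S100a4 and with Lgals3. Other partners, markers and glycan enzymes named in the text were chosen after their values were seen. The members and lists were chosen with earlier results of these data known. Values of some single marker genes are not reported here.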

Additional observations from a re-analysis of the deposited data

How the results depend on the processing

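The number of the 9 S100 and galectin genes past the thresholds was 0 in the fit as reported. It was 2 with the replicate block, which pairs libraries by replicate number, though the labels do not say what that number stands for. It was 3 with replicates 2 and 3 only, and 0 to 3 when 1 library was left out, the 3 coming without WT replicate 1. The number with an adjusted p under 0.05 was 0, and 5, 7 and 0 to 4 in the same settings, with 4 without WT replicate 1. With the block and no FPKM minimum together, chosen after seeing the data, they were 3 and 6. Both stayed at 0 with median-ratio scaling, either FPKM minimum without the block, DESeq2 and limma. Over all genes, 71 passed the thresholds; this was 148 with no FPKM minimum, 43 with a minimum of 5, 161 with DESeq2, 184 with the replicate block, 312 with the block and no FPKM minimum, 369 with replicates 2 and 3 only, and 25 to 163 with 1 library left out. In the 5 partner lists, 4 genes passed, and 2 to 5 with 1 library left out, the 2 coming without WT replicate 3 or Scd-1-/- replicate 3. The number of the 9 genes whose groups did not overlap was 6, 9 with replicates 2 and 3 only, and 6 to 8 with 1 library left out, where 19.4% to 38.0% of all tested genes did not overlap. Lgals8 alone changed direction; with 1 library left out it ran from -0.13 to 0.34, being -0.05 without WT replicate 2, -0.13 without WT replicate 3 and -0.09 without Scd-1-/- replicate 1, and the cause was not tested. It lies under the FPKM minimum of 5 and has no value there. The block without the FPKM minimum added S100a4 to the genes past the thresholds and Lgals1 to those with an adjusted p under 0.05; in the block fit with the minimum, S100a4 and Lgals1 had an adjusted p of 0.0453 and 0.0573. Depth limits S100a2, S100a8, S100a14, S100z and Lgals2, whose 0 to 4 counts allow no comparison.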
